A study of Mus musculus with 17 samples.

Results

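*Klf1*, *Klf3*, *Klf8* and *Klf12* are 4 Krüppel-like factor genes that were measured together in whole mouse embryos carrying mutations of *Klf3*. They were chosen as the probe sets that the platform annotation assigns to these genes. Each of the 4 genes has 1 probe set among 39137 in all, or 4 of 22180 genes with a symbol of their own. The embryos were collected at E12.5 and hybridized singly to 17 Affymetrix arrays. There were 3 embryos homozygous for *Klf3* H275R, 4 heterozygous for *Klf3* H275R, 4 homozygous for the CH gene trap, 2 heterozygous for the CH gene trap, and 4 wild type (WT).

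H275R is a point mutation made with the mutagen ENU that lies in the first zinc finger of KLF3, and its line was maintained by breeding to C57BL/6. CH is a gene trap in the first intron of *Klf3*, made from 1 embryonic stem cell line on a mixed B6;129 background. Embryos were matched by litter only in part, and no source used here gives the line from which the WT embryos came. CH embryos may therefore differ in genetic background from WT and from H275R embryos, which was not tested. CH homozygotes and CH heterozygotes are of the same line. The litter and sex of each embryo are likewise not given.

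Krüppel-like factors bind CACCC and related GC-rich sites in DNA through 3 zinc fingers at the C terminus. KLF1 is an activator made almost exclusively in erythroid cells, where it turns on globin, heme and red cell membrane genes. KLF3, KLF8 and KLF12 are repressors that recruit the corepressor CtBP. In mouse erythroid cells KLF1 is known to activate *Klf3* and *Klf8*, and KLF3 is known to repress *Klf8*, so that the genes form a network.

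On the mouse assembly GRCm38.p6, *Klf3* (gene ID 16599) lies at chr5:64803521-64832901, *Klf8* (gene ID 245671) at chrX:153225339-153398925 and *Klf12* (gene ID 16597) at chr14:99866181-100285891. *Klf1* (gene ID 16596) lies at chr8:84901982-84905291. The 250 bases before the annotated start of *Klf3* and before 2 annotated starts of *Klf8* are printed here, because CH homozygotes lay below all other arrays for *Klf3* and above all other arrays for *Klf8*. They are from RefSeq, are all on the plus strand, and show CACCC or its reverse complement GGGTG in capitals.
*Klf3*, chr5:64803271-64803520: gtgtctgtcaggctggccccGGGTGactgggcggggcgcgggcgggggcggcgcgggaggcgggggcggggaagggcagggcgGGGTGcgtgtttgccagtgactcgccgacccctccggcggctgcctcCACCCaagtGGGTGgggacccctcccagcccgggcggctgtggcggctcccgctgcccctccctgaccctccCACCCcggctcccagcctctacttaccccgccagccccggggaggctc
*Klf8*, upstream start, chrX:153237498-153237747: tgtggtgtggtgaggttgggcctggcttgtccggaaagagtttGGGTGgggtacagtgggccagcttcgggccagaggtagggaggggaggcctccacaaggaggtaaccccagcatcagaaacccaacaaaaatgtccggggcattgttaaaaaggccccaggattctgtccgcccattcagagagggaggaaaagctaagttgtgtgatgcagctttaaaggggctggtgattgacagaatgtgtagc
*Klf8*, downstream start, chrX:153359363-153359612: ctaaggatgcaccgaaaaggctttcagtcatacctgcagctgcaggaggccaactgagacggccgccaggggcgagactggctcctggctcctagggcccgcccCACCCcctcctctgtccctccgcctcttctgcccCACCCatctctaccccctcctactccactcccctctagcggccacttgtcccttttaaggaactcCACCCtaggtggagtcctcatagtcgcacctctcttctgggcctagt

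The *Klf3* window holds CACCC 5 times over both strands, the upstream *Klf8* window 1 time and the downstream *Klf8* window 3 times. *Klf1* and *Klf12* have 1 match each. The *Klf12* window, chr14:100149797-100150046 on the minus strand, is before an annotated start that lies inside the locus given above. The annotated starts of *Klf8* lie inside its locus as well. The motif CACCC was found in 52% of 32851 annotated mouse promoter windows of the same length, and 3 or more matches in 6.92% of them. The longer motif CACACCC, counted on both strands and containing CACCC, was found in 6.93% of the windows, in those of *Klf1* and *Klf12* and in none of the other 3. These matches describe the sequences only, and binding was not measured in these embryos.

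Values are log2 units after robust multiarray average (RMA) normalization, so a difference of 1 unit is a change of 2-fold. They were compared within each gene between genotypes and not between genes, because probe sets differ in brightness. Differences were tested with limma over all 39137 probe sets, and passed where the adjusted p (Benjamini-Hochberg) was under 0.1. The array medians were 6.68 to 6.78, and arrays correlated at 0.981 to 0.994 with each other over probe sets. WT embryo 4 had a score of 20.1 on the first principal component (19.4% of the variance), within the range of the CH arrays (4.34 to 32.1) and apart from the other arrays (-29.2 to -0.45). The mean of 14 cartilage markers was 8.78 to 9.05 in CH homozygotes 2 and 4 and CH heterozygote 2, but 7.90 to 8.0 in the other CH arrays and WT 4, and 8.23 to 8.45 in the rest. The same 3 arrays were also the highest of all in the means of 10 hepatocyte markers (9.92 to 10.0, against 8.54 to 9.41 in the others), 10 skeletal muscle markers (8.90 to 9.0, against 8.12 to 8.89) and 10 macrophage markers (7.94 to 7.97, against 7.45 to 7.75).

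*Klf3*, the gene targeted in both lines, was lower in CH homozygotes than in every other array, as were 0.125% of all probe sets. Its log2 values were 5.27, 5.62, 5.73 and 6.13 in CH homozygotes, against 9.80, 9.48, 9.61 and 9.55 in WT. The groups did not overlap, as was so with CH homozygotes lower for 2.09% of all probe sets, and *Klf3* had a mean of 5.69 ± 0.35 in CH homozygotes and 9.61 ± 0.14 in WT (SD, n = 4 each). The difference was -3.92 (SE 0.14, 95% interval -4.23 to -3.61), or 0.066-fold, with an adjusted p of 5.18e-09 in limma. The *Klf3* values of CH homozygotes were below the array medians and the files hold no detection calls, so whether the probe set was above background there is not known, and the true fold may be smaller than 0.066. *Klf3* was the first of all probe sets by p in this comparison and the only 1 of the 4 genes to pass it, where 0.0588% of all probe sets passed.

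In heterozygotes for the same gene trap, *Klf3* stayed near the WT values. The 2 CH heterozygotes had log2 values of 9.64 and 9.09, and the second was below every WT array. The mean difference from WT was -0.24 (95% interval -0.65 to 0.17), or 0.846-fold with bounds of 0.638 and 1.12, and it did not pass (limma, adjusted p = 0.934; 0.00511% of all probe sets passed). CH homozygotes were lower than CH heterozygotes by -3.68 (SE 0.19, limma adjusted p = 1.83e-07), again as the only 1 of the 4 genes to pass, where 0.00511% of all probe sets did. These groups did not overlap either, which held for 7.27% of all probe sets in that direction.

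In the point mutants *Klf3* overlapped WT. *Klf3* had log2 values of 9.65, 9.33 and 9.38 in H275R homozygotes and 9.66, 9.70, 9.57 and 9.45 in H275R heterozygotes, so that H275R homozygotes 2 and 3 and H275R heterozygote 4 were below the lowest WT array. The difference from WT was -0.15 (95% interval -0.49 to 0.18) in homozygotes and -0.01 (95% interval -0.32 to 0.30) in heterozygotes. Neither passed (limma, adjusted p = 0.999 and 1.0). None of the 4 genes passed either comparison, where 0.0128% of all probe sets passed for homozygotes and 0% for heterozygotes.

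The lines were also compared directly. *Klf3* was lower in CH homozygotes than in H275R homozygotes by -3.77 (SE 0.16, limma adjusted p = 2.61e-08), and 0.164% of all probe sets passed. It was lower in CH homozygotes than in H275R heterozygotes by -3.91 (SE 0.14, limma adjusted p = 5.40e-09), and 0.951% of all probe sets passed. *Klf3* was the only 1 of the 4 genes to pass in either. It was lower without overlap in both, as were 4.99% and 3.93% of all probe sets. H275R homozygotes and H275R heterozygotes differed by -0.14 in *Klf3* (95% interval -0.47 to 0.19), and none of the 4 genes and 0% of all probe sets passed (limma; 1243 probe sets were under an unadjusted p of 0.05).

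**Figure D1:**
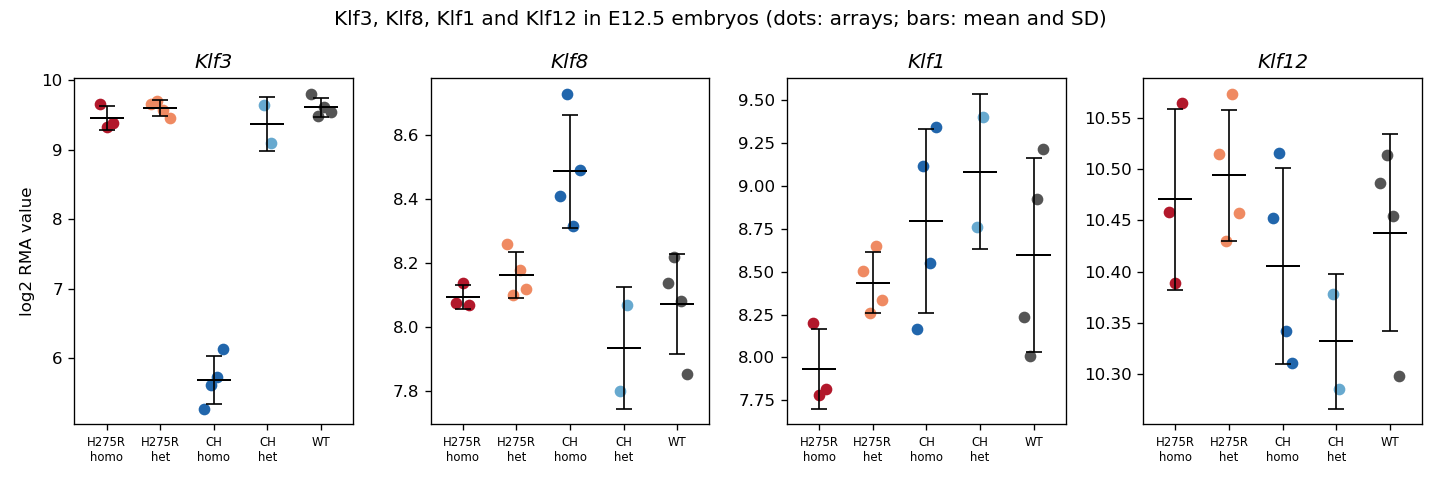
The log2 RMA value of each gene is shown for every array (dots) by genotype, with the mean and SD as bars. Each panel has its own axis, so heights cannot be compared between genes. The 4 CH homozygotes are below all 13 other arrays for *Klf3* and above all of them for *Klf8*, and *Klf12* spans 0.287 units in all.

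*Klf8*, which encodes a CtBP-binding repressor that is a known target of KLF3, had its highest values in CH homozygotes. Its log2 values were 8.41, 8.73, 8.32 and 8.49 in CH homozygotes, against 8.14, 8.22, 8.08 and 7.85 in WT. All 4 CH homozygotes were above the highest of the 13 other arrays, which was 8.26, as was so for 0.314% of all probe sets. The difference from WT was 0.41 (SE 0.093, 95% interval 0.21 to 0.61), or 1.33-fold with bounds of 1.16 and 1.53.

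This *Klf8* difference did not pass across all probe sets (limma, adjusted p = 0.204), where *Klf8* was at position 104 by p. The two-sided exact permutation test over the arrays gave p = 0.0286, the smallest that 4 against 4 arrays allow. Groups without overlap and with the mutant higher were seen for 2.01% of all probe sets in this comparison.

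*Klf8* was also above the other mutant groups, again without passing. CH heterozygotes had log2 values of 7.80 and 8.07, and CH homozygotes were higher by 0.55 (95% interval 0.30 to 0.80; limma adjusted p = 0.554), or 1.47-fold. H275R homozygotes had log2 values of 8.07, 8.14 and 8.07, and CH homozygotes were higher by 0.39 (95% interval 0.18 to 0.61; limma adjusted p = 0.170). The groups did not overlap in either comparison, as was so with the first group higher for 5.36% and 5.70% of all probe sets.

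In H275R heterozygotes *Klf8* had log2 values of 8.26, 8.10, 8.18 and 8.12. CH homozygotes were higher by 0.32 (95% interval 0.12 to 0.52), without overlap, and this too did not pass (limma, adjusted p = 0.145; 4.49% of all probe sets were higher without overlap). These comparisons share the 4 CH homozygotes, so they are not separate observations of the same difference. Those with the H275R groups also set lines side by side that may differ in genetic background, which was not tested. The p passed in some alternatives for the H275R groups: with the cartilage mean as a covariate the difference was 0.34 (adjusted p = 0.0714) from H275R homozygotes and 0.29 (adjusted p = 0.0613) from H275R heterozygotes. With this covariate more probe sets passed in all, 723 in place of 64 in the first comparison and 1826 in place of 372 in the second. Without WT 4 and CH homozygotes 2 and 4, the difference from WT was 0.22 (limma adjusted p = 0.227), and 1036 probe sets in place of 23 passed in that comparison.

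*Klf8* did not differ beyond its error between either point mutant group, or CH heterozygotes, and WT. The difference from WT was 0.02 in H275R homozygotes (95% interval -0.19 to 0.24) and 0.09 in H275R heterozygotes (95% interval -0.11 to 0.29). CH heterozygotes differed from WT by -0.14 (95% interval -0.39 to 0.12). The upper bounds were 1.18-fold, 1.22-fold and 1.08-fold, so rises beyond these sizes lie outside the intervals.

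*Klf8* is on the X chromosome, and the embryos were of both sexes as read from the Y-linked genes *Kdm5d*, *Eif2s3y* and *Uty*. Their mean was 9.55 to 9.96 in H275R homozygote 1, CH homozygote 3, CH heterozygote 1 and WT 2, and 4.13 to 4.54 in all others. With this mean as a covariate, the difference of *Klf8* between CH homozygotes and WT was 0.41 (limma adjusted p = 0.235).

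**Figure D2:**
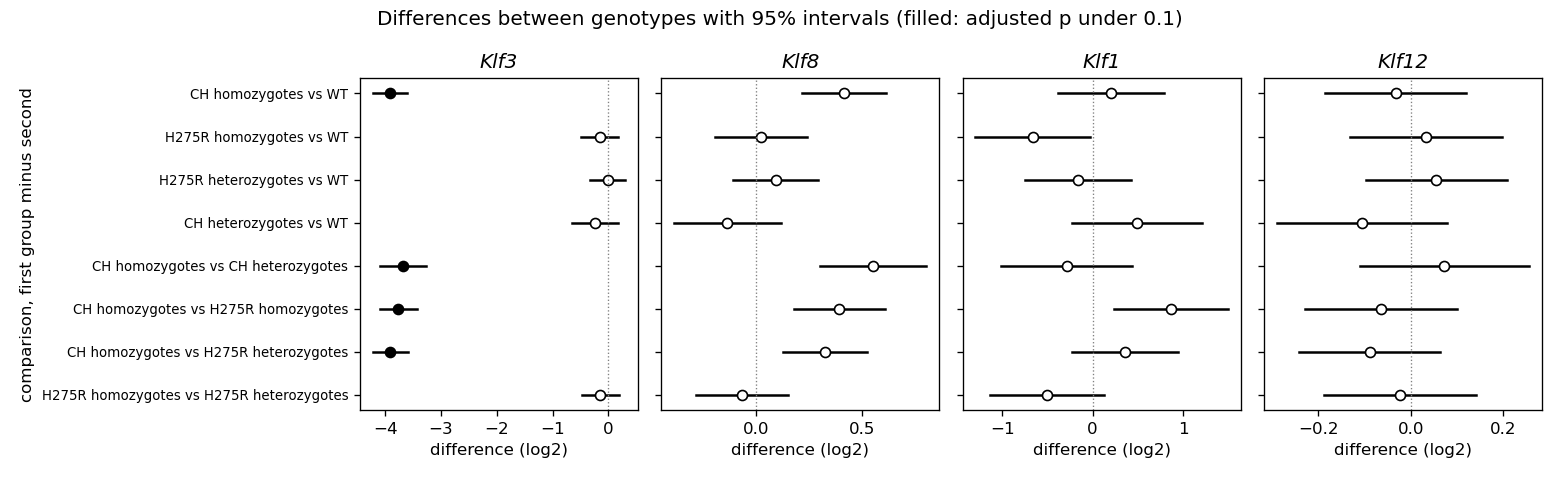
The difference of each gene is plotted on a log2 axis for the 8 comparisons, as the first group minus the second, with its 95% interval from limma. Filled points passed an adjusted p of 0.1, which only *Klf3* did, in the 4 comparisons that involve CH homozygotes. The intervals of *Klf8* lie above 0 in the same 4 comparisons.

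*Klf12*, the other gene here that encodes a CtBP-binding repressor, varied least of the 4 genes. Its log2 values were 10.46, 10.39 and 10.56 in H275R homozygotes, 10.52, 10.43, 10.57 and 10.46 in H275R heterozygotes, and 10.45, 10.52, 10.34 and 10.31 in CH homozygotes. They were 10.38 and 10.29 in CH heterozygotes, and 10.49, 10.51, 10.45 and 10.30 in WT. The groups overlapped in all 8 comparisons. The differences lay between -0.11 and 0.07, and none passed (limma). For CH homozygotes against WT the difference was -0.03 (95% interval -0.19 to 0.12). Its SD within genotypes was 0.085, and 9.10% of all probe sets had a lower one.

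*Klf1*, the erythroid activator upstream of *Klf3* and *Klf8*, varied most of the 4 genes between embryos of a genotype. Its SD within genotypes was 0.43, and 96.3% of all probe sets had a lower one. Its log2 values were 8.17, 9.12, 8.55 and 9.35 in CH homozygotes and 8.76 and 9.40 in CH heterozygotes, against 8.23, 8.01, 8.93 and 9.22 in WT. The CH groups overlapped WT, with a difference of 0.20 for CH homozygotes (95% interval -0.38 to 0.78) and 0.49 for CH heterozygotes (95% interval -0.23 to 1.21). Neither size was stable when 1 array was left out: the first was 0.0032 without WT 2 and 0.41 without CH homozygote 1, and the second 0.17 without CH heterozygote 2 and 0.81 without CH heterozygote 1.

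*Klf1* was at its lowest in H275R homozygotes. Its log2 values were 8.20, 7.78 and 7.82 in H275R homozygotes, 8.50, 8.26, 8.65 and 8.33 in H275R heterozygotes, and in WT as above. Homozygotes were below every heterozygote, but the highest of them was above the lowest WT value. The difference from WT was -0.66 (SE 0.29, 95% interval -1.29 to -0.03), or 0.631-fold, and did not pass (limma, adjusted p = 0.974; two-sided exact permutation p = 0.143).

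Against H275R heterozygotes *Klf1* was lower in H275R homozygotes by -0.50 (95% interval -1.13 to 0.13; limma adjusted p = 1.0). The two-sided exact permutation test gave p = 0.0286, the smallest that 3 against 4 arrays allow, and 2.50% of all probe sets were lower without overlap. CH homozygotes were higher in *Klf1* than H275R homozygotes by 0.86 (95% interval 0.23 to 1.49), with overlap and without passing (limma, adjusted p = 0.262). H275R heterozygotes differed from WT by -0.16 (95% interval -0.74 to 0.42).

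Over the embryos, *Klf1* was higher where erythroid markers were higher. A list of 19 erythroid markers holds neither *Klf1* nor its targets listed here. It does hold globin genes such as *Hbb-y* and heme genes such as *Fech*, kinds that KLF1 turns on. The mean of these markers was 8.53 to 8.80 in H275R homozygotes and 8.97 to 9.02 in H275R heterozygotes. It was 8.65 to 9.25 in CH homozygotes, 9.25 and 9.42 in CH heterozygotes, and 8.97 to 9.44 in WT. In H275R homozygotes 19 of the 19 were below WT, with a median difference of -0.49 and 12 under an unadjusted p of 0.05, against 5.06% of all probe sets, and none passed. The median over all probe sets was -0.01. In CH homozygotes 16 of the 19 were below WT, with a median of -0.12, and none passed. H275R heterozygotes also had 19 of the 19 below WT, with a median of -0.18. Of these, 2 were under an unadjusted p of 0.05 (limma), against 3.87% of all probe sets, and none passed. CH heterozygotes had 16 of the 19 above WT, with a median of 0.14. Between CH homozygotes and CH heterozygotes, 19 of the 19 were lower in homozygotes, with a median of -0.28, and none passed. Markers of hepatocytes, the other main cell type of the fetal liver, were lower too in H275R homozygotes. Of 10, 8 were below WT, with a median difference of -0.40, but 1 was under an unadjusted p of 0.05 (limma) and none passed. Of all 39137 probe sets, 20929 were below WT in this comparison. The hepatocyte mean was 8.75 to 9.08 in H275R homozygotes and 8.91 to 9.41 in WT. The part of this in the erythroid values was not tested. In whole embryos, fewer erythroid cells and less RNA per erythroid cell cannot be told apart.

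Over the 17 embryos, Pearson's r between *Klf1* and this mean was 0.882 and Spearman's rho 0.904. The r was 0.848 without the 2 arrays farthest from the median of the marker mean, and 0.929 over deviations from the genotype means. This is 1 of 3 relations that were computed, chosen after the values were seen. It is given without a p, because the markers *Hemgn* and *Rhd* were among the genes most like *Klf1* in these arrays.

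With the erythroid mean as a covariate, the differences of *Klf1* from WT took other values. In H275R homozygotes the sign turned, to 0.43 (limma, SE 0.18, adjusted p = 0.992), and in CH homozygotes the difference was 0.60 (limma, SE 0.12, adjusted p = 0.0916), which passed. With this covariate 143 probe sets in place of 23 passed for CH homozygotes against WT, 64 of them higher in place of 6. *Klf1* minus the marker mean was -0.48, -0.13, -0.43 and 0.16 in CH homozygotes, against -0.82, -0.96, -0.44 and -0.22 in WT. These ranges overlapped. The part of erythroid cell number in these values was not tested. The marker mean also holds globin and heme genes, kinds that KLF1 turns on, so it may not be independent of *Klf1*.

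**Figure D3:**
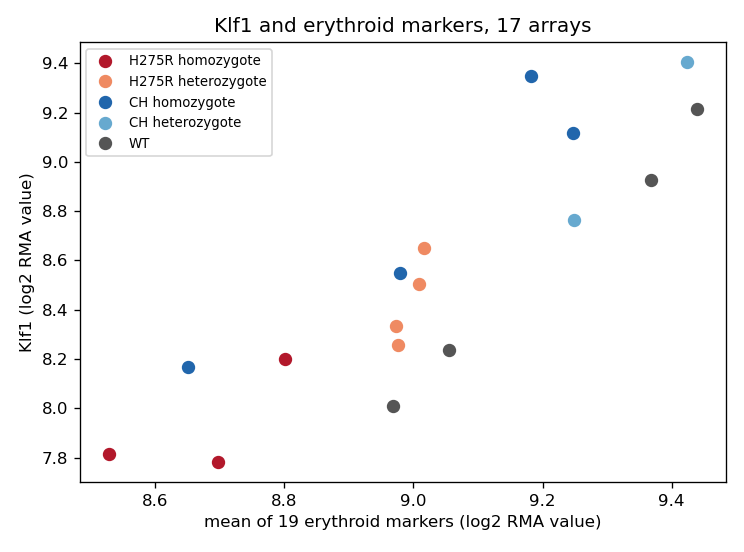
The log2 RMA value of *Klf1* is plotted against the mean log2 value of 19 erythroid markers, 1 dot for each of the 17 embryos, coloured by genotype. *Klf1* is higher where the marker mean is higher, and the 3 H275R homozygotes are among the lowest in both, with marker means of 8.53 to 8.80.

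Of 21 genes listed as activated by KLF1, 15 were analysed here. In H275R homozygotes 12 of the 15 were below WT, with a median of -0.31, and 1 passed as lower, where 0.0128% of all probe sets did. This was *Xk*, a red cell membrane protein gene, with log2 values of 7.96, 8.01 and 7.74 in H275R homozygotes against 8.58, 8.49, 8.79 and 8.83 in WT. The *Xk* difference was -0.77 (SE 0.11, limma adjusted p = 0.0756). This call was lost in 15 of 22 alternatives (-0.83 to -0.41, adjusted p 0.0314 to 0.992), among them the replicate block (adjusted p = 0.269) and each of the 7 arrays left out in turn. *Xk* was also below the lowest WT value in H275R heterozygotes (8.20 to 8.36) and CH homozygotes (7.95 to 8.32), as were 1.55% and 2.09% of all probe sets. The differences were -0.37 and -0.47, and neither passed (limma). CH heterozygotes, at 8.32 and 8.65, overlapped WT in *Xk*, with a difference of -0.19.

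The blood group gene *Kel* differed by -1.23 (limma, adjusted p = 0.149) in H275R homozygotes, the red cell membrane gene *Epb42* by -0.97 and *Ermap*, which encodes an erythroid membrane protein, by -0.92, and none of these passed. In CH homozygotes 6 of the 15 were above WT and 9 below, with a median of -0.15, and none passed. In CH heterozygotes 9 were above and 6 below, with a median of 0.02, and in H275R heterozygotes 4 and 11, with a median of -0.19, again with none passed. *Klf1* and the mean of these 15 genes had a Pearson's r of 0.835 and a Spearman's rho of 0.723 over the 17 embryos, the second of the 3 relations. The r was 0.776 without the 2 arrays farthest from the median. No p is given here either, because *Tfrc* of this list was among the genes most like *Klf1* over deviations from the genotype means.

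Besides *Klf8*, the study names *Lgals3*, *Crip1*, *Pqlc3* and *Ckm* as targets of KLF3, the last as a gene that KLF3 activates. In CH homozygotes 4 of 4 were above WT, with a median difference of 0.74, and none passed. Over all 39137 probe sets the median was 0.00, with 19122 above 0. *Crip1*, which encodes a small LIM domain protein, had log2 values of 10.16, 10.74, 9.98 and 10.89 in CH homozygotes, against 9.41, 9.44, 9.64 and 9.70 in WT. Its groups did not overlap, as was so with CH homozygotes higher for 2.01% of all probe sets, and the difference was 0.89 (SE 0.16, limma adjusted p = 0.109), or 1.86-fold.

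*Lgals3*, which encodes the sugar-binding protein galectin-3, had log2 values of 7.29, 7.82, 7.68 and 7.80 in CH homozygotes, against 7.24, 6.86, 7.19 and 6.95 in WT. The difference was 0.59 (limma, adjusted p = 0.159). *Pqlc3*, a gene for a membrane protein, differed by 1.04 (limma, adjusted p = 0.301), and its CH homozygote 4, at 9.40, was the highest of all arrays. *Ckm*, muscle creatine kinase, differed by 0.09 (limma, adjusted p = 0.908).

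Against H275R heterozygotes, CH homozygotes were higher in *Crip1* by 0.98 (limma, SE 0.16, adjusted p = 0.0341) and in *Lgals3* by 0.51 (limma, SE 0.12, adjusted p = 0.0980), and both passed. The *Crip1* call was lost in 4 of 23 alternatives (0.61 to 1.14, adjusted p 0.0101 to 0.271), among them without H275R heterozygote 1 or 2, and the *Lgals3* call in 17 of 23 (0.35 to 0.63, adjusted p 0.0287 to 0.315), among them without any 1 of the H275R heterozygotes. In this comparison 0.473% of all probe sets passed with CH homozygotes higher. The lines may also differ in genetic background, and the part of this in the calls was not tested. In H275R homozygotes the median difference of the 4 genes from WT was 0.06. *Lgals3* was at 7.29, 7.44 and 7.37 in H275R homozygotes, above the 4 WT values, with a difference of 0.31 (limma, adjusted p = 0.963; 2.65% of all probe sets were higher without overlap). *Crip1* differed by 0.01 and *Pqlc3* by -0.09. In H275R heterozygotes the 4 differences from WT were -0.10 to 0.10. By qRT-PCR in whole embryos at E12.5, the study reports *Lgals3* as significantly higher in H275R homozygotes than in WT. It describes *Klf8*, *Crip1* and *Pqlc3* as unaffected.

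In CH heterozygotes 4 of 4 of these genes were above WT as well, with a median difference of 0.24, and none passed. *Crip1* had log2 values of 9.72 and 10.31 in CH heterozygotes, both above the 4 WT values, with a difference of 0.46 (limma, adjusted p = 0.836; 6.98% of all probe sets were higher without overlap). CH homozygotes were above CH heterozygotes in *Crip1* by 0.43 (limma, adjusted p = 0.928).

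The arrays with high cartilage markers were also those with high values of the targets. CH homozygotes 2 and 4 had the 2 highest values of *Crip1*, *Lgals3* and *Pqlc3* in all 17 arrays, and CH heterozygote 2, at 10.31, followed them in *Crip1*. For *Klf8*, CH homozygotes 2 and 4 were at 8.73 and 8.49 and CH heterozygote 2 at 8.07. With the cartilage mean as a covariate, the difference from H275R heterozygotes was 0.92 in *Crip1* (limma, adjusted p = 0.0101) and 0.48 in *Lgals3* (adjusted p = 0.0549). Without WT 4 and CH homozygotes 2 and 4, it was 0.61 in *Crip1* (limma, adjusted p = 0.0106) and 0.35 in *Lgals3* (adjusted p = 0.231). Many more probe sets passed this comparison in both settings, 1826 with the covariate and 1754 without these arrays, in place of 372. The part of cartilage in the differences from WT, and in *Pqlc3*, was not tested.

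**Figure D4:**
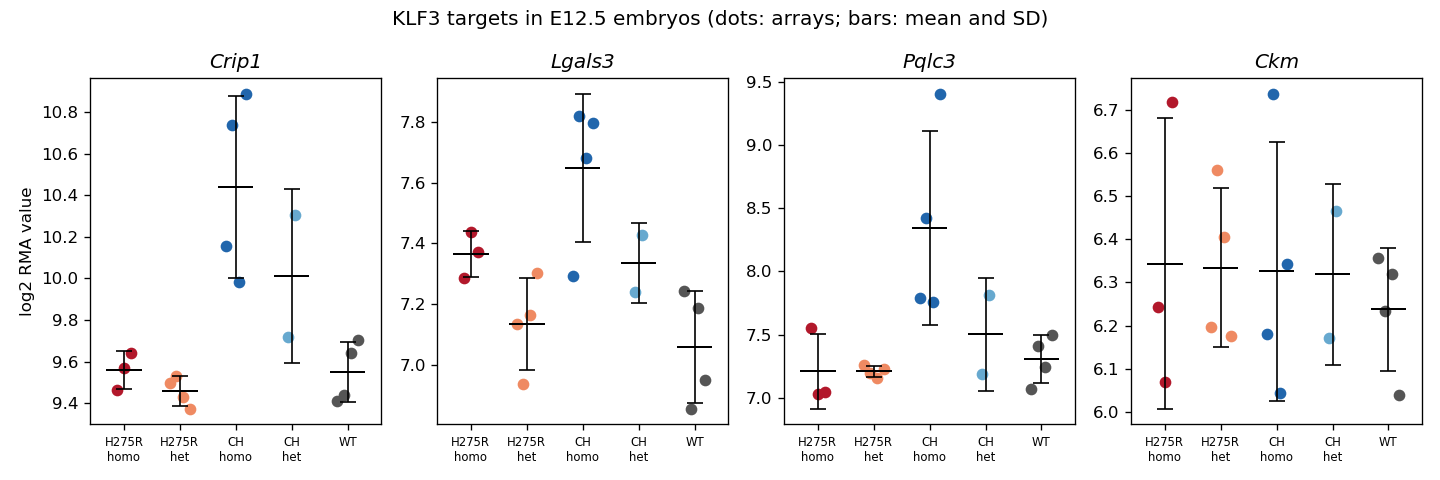
The log2 RMA values of 4 genes named as targets of KLF3 are shown for every array (dots) by genotype, with the mean and SD as bars and an axis for each gene. The CH homozygotes are all above the 4 WT arrays for *Crip1*, *Lgals3* and *Pqlc3*, and overlap them for *Ckm*; such a separation was seen for 2.01% of all probe sets.

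Components of the CtBP corepressor complex, through which KLF3, KLF8 and KLF12 repress, made up a list of 10 genes. None of the 10 passed in any of the 8 comparisons. Their median difference was -0.03 in CH homozygotes and 0.00 in H275R homozygotes, each against WT, and the farthest from 0 in CH homozygotes was *Ctbp2*, a CtBP gene itself, at -0.11. In H275R homozygotes it was the histone methyltransferase gene *Ehmt1* at 0.09.

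None of 13 other Klf genes passed in any comparison either. Their median difference from WT was 0.01 in CH homozygotes, 0.09 in H275R homozygotes, 0.08 in H275R heterozygotes and 0.00 in CH heterozygotes. In CH homozygotes *Klf10*, a gene induced by TGF-beta signalling, had the largest difference at 0.45 (SE 0.16, limma adjusted p = 0.442). *Klf11* was at 0.20 and *Klf17* at -0.19. In H275R homozygotes the largest was *Klf4* at 0.38 (limma, adjusted p = 0.989), followed by *Klf6* at 0.22.

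The genes whose pattern over the 17 arrays was most like that of each gene were ranked by Pearson's r, as a description without a test. For *Klf1* these were the erythroid genes *Hemgn* (0.948), *Car2* (0.946) and *Rhd* (0.939), then *Ptp4a3* and *Creg1*. Over deviations from the genotype means they were *Car2* (0.943), *Cep20* (0.936) and *Tfrc* (0.929), the transferrin receptor gene. For *Klf12* they were *Mir344e* (0.853), *Ttyh1* (0.849) and the neuronal gene *Elavl3* (0.846), then *Unc45a* and *Camsap3*. Over deviations they were *Hpca*, *Mir741* and *Amer2*.

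The mean of 10 neuronal markers, which holds *Elavl3*, was 10.41 to 10.57 in H275R homozygotes, 10.48 to 10.59 in H275R heterozygotes and 10.39 to 10.47 in CH homozygotes. It was 10.22 to 10.36 in CH heterozygotes and 10.30 to 10.54 in WT. Pearson's r between *Klf12* and this mean was the third of the 3 relations. It was 0.771 and is given without a p, because *Elavl3* had been among the genes most like *Klf12*.

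For *Klf3* and *Klf8* the genes most like each changed when the 4 CH homozygotes, which stand apart from the rest, were left out. The genes most like *Klf3* were *Gadd45gip1* (0.874), *Btrc* (0.872), *Mri1* (0.842), *Prss27* and *F2rl2*. Over the 13 arrays without CH homozygotes none of these was among the 5 most like it, which were *1700037H04Rik* (0.902), *Ndufa12* (0.874), *Sox12* (0.862), *Otp* and *Vps72*. Over deviations from genotype means they were *Gm6003*, *Gpr135* and *Nars*.

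The genes most like *Klf8* were *Ankrd46* (0.846), *Gfpt1* (0.839), *Hydin* (0.836), *Dffb* and *Cers4*. Over the 13 arrays without CH homozygotes none of these was among the 5 most like it, which were *Ank2* (0.957), *Dcx* (0.927), *Pak7* (0.925), *Cog6* and *Pnma2*. Over deviations they were *Ppargc1b* (0.944), *Lypd6b* (0.918) and *Ppargc1a* (0.907). *Hydin* was also the gene most opposite to *Klf3*, at -0.935. Between *Klf3* and *Klf8* themselves the likeness was -0.786 over 17 arrays and -0.02 over the 13 arrays without CH homozygotes.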

How the data were processed

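The authors hybridized RNA of whole embryos at E12.5 to Affymetrix ST arrays and deposited log2 values after RMA, which corrects background, equalizes arrays and combines the probes of a probe set. Per the labels, Partek was also used. Not given in the sources used here are the annotation, the test used for the arrays and whether all were normalized together, so the methods' t-test is the one stated for other measurements. The deposited values were used unchanged. Limma 3.58.1 in R 4.3.3 was fitted to 39137 probe sets with 1 mean per genotype, over 15 arrays or over all 17 for comparisons with CH heterozygotes. Adjustment was by Benjamini-Hochberg over all probe sets, with passing under 0.1, and single genes also had a two-sided exact permutation test. The fit was tested on simulated data.

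Genes came from the platform annotation, which gives 1 symbol for 23521 probe sets, several for 1820 and none for 13796. For listed genes with several probe sets the highest mean was used. The named genes were the 4 genes, the 5 most like each (3 for deviations from genotype means), and, of the lists, those genes that passed, or else at most 4 with the largest absolute difference. The members and lists were chosen with earlier results of these data known. Alternatives were other samples, moderation, filters, scalings, covariates and each array left out. The number of arrays limits the precision. The limma p-values rest on the spread between embryos within all genotypes fitted, not only within the groups compared.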

Additional observations from a re-analysis of the deposited data

Results flagged for a closer look

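*Klf3* differed between the lines. The effect of CH homozygosity minus that of H275R homozygosity, each against the same WT arrays, was -3.77 (limma, adjusted p = 2.61e-08), and all 4 CH homozygotes were below all 3 H275R homozygotes. In groups of 4 arrays, no value of the 4 genes stood apart from its group by the Dixon criterion, and the largest ratio of gap to range was 0.723, for WT 4 in *Klf12*.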

How the results depend on the processing

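Over 760 values of the 4 genes under an alternative, 724 kept their direction and side of the threshold, 28 turned sign, 6 came to pass and 2 no longer passed. *Klf3* passed for CH homozygotes against WT and H275R heterozygotes in all alternatives with a test (-4.13 to -3.78 and -4.09 to -3.77). With the methods' t-test it missed against CH heterozygotes (-3.68, adjusted p = 0.586) and H275R homozygotes (-3.77, adjusted p = 0.166).

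*Klf8* came to pass against H275R homozygotes above the median level (0.39) and with the cartilage covariate (0.34), and against H275R heterozygotes with 1 gene symbol (0.32), above the median level (0.32) and with the cartilage covariate (0.29). For H275R homozygotes 344 and 723 probe sets passed in these settings, in place of 64. For H275R heterozygotes 682, 1286 and 1826 passed, in place of 372. Against WT *Klf8* did not pass in any alternative (0.22 to 0.47, adjusted p 0.114 to 0.715). *Klf1* passed for CH homozygotes against WT with the erythroid covariate (0.60), where 143 probe sets passed in place of 23.

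All values that turned sign had not passed. With the erythroid covariate these were H275R homozygotes against WT in *Klf1* (0.43), *Klf3* (0.14) and *Klf12* (-0.062), H275R heterozygotes against WT in *Klf1* (0.28) and *Klf3* (0.11), CH homozygotes against CH heterozygotes in *Klf1* (0.39), and H275R homozygotes against H275R heterozygotes in *Klf1* (0.15) and *Klf3* (0.036). Quantile normalization and median centring gave 0.00202 and 0.016 for *Klf3* in H275R heterozygotes against WT. Array weights gave -0.00207 for *Klf8* in H275R homozygotes against WT.

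Without each array in turn, the ranges that crossed 0 were -0.055 to 0.051 (*Klf3*) and -0.36 to 0.046 (*Klf1*) for H275R heterozygotes against WT, -0.052 to 0.070 (*Klf8*) and -0.015 to 0.073 (*Klf12*) for H275R homozygotes against WT, -0.52 to 0.034 for *Klf3* in CH heterozygotes against WT, -0.61 to 0.032 for *Klf1* in CH homozygotes against CH heterozygotes, and -0.070 to 0.017 for *Klf12* in H275R homozygotes against H275R heterozygotes. Where this left 1 CH heterozygote, it was assumed to vary like the other groups. Leaving out WT 4 and CH homozygotes 2 and 4, chosen after seeing the data, gave *Klf1* values of -0.032 for CH homozygotes and 0.046 for H275R heterozygotes against WT and -0.078 for CH homozygotes against H275R heterozygotes, and *Klf8* (-0.052) and *Klf12* (-0.014) values for H275R homozygotes against WT. The causes were not tested.

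Whether equal replicate numbers pair the embryos could not be decided, because the correlations of deviations overlapped. They were -0.14 to 0.43 for equal numbers and -0.47 to 0.47 for different numbers. The closest match had the same number for 7 of 17 arrays. With the replicate block, 31 of 32 values kept their call and direction, and *Klf8* in H275R homozygotes against WT was -0.00746. The block moved the probe sets that passed to 706 from 372 for CH homozygotes against H275R heterozygotes and to 42 from 64 against H275R homozygotes.

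Counts over all probe sets depended strongly on the setting. For CH homozygotes against WT, 23 passed, with 1 by the methods' t-test, 129 without WT 4 and 1036 without WT 4 and CH homozygotes 2 and 4. Against H275R homozygotes it was 64 (0 to 1071), and against H275R heterozygotes 372 (21 to 1826). For H275R homozygotes against WT it was 5 (0 to 10), with 0 in the 2 groups alone, by the methods' t-test, with quantile normalization, with the erythroid covariate, and without H275R homozygote 2 or 3 or WT 1, 2 or 4. Each of the 4 genes has 1 probe set, so the planned reading from other probe sets could not be run.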
